A study of Canis lupus familiaris with 20 samples.

Results

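P114 is a cell line from a canine mammary anaplastic cancer, and the data described here are both cell populations of its co-culture with macrophages: the cancer cells sorted back out of it and the macrophages sorted back out of it. The arrays were chosen by their labels alone, as the 4 of 20 arrays that name P114. 2 arrays compared P114 cells from the co-culture with P114 cells grown alone, and 2 compared macrophages from the same co-culture with macrophages grown alone. The other 16 arrays held the same contrasts for CMT-U27 (a simple carcinoma line), CMT-U309 (a spindle-cell tumour line), CMT-W1 and CMT-W2 (both adenocarcinoma lines). Co-cultures ran for 72 h, in serum-containing medium and without any drug or gene alteration. The macrophages came from CD64-sorted blood monocytes of healthy dogs that had been laid onto cancer cells carrying the orange dye CMTMR. The co-cultures were taken up with trypsin and sorted into dyed cancer cells and undyed macrophages, whereas mono-cultures were scraped off without a sort, so culture and harvest cannot be told apart in any ratio below. Each line is 1 established line, and how many dogs gave the monocytes of each culture is not given in the sources used here.

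Tumour-associated macrophages are recruited by chemokines, differentiate under colony-stimulating factors and exchange cytokines with the cancer cells around them. IL6 is a cytokine of this exchange. It acts through the gp130 receptor chain, which it shares with LIF, and gp130 signalling induces the feedback inhibitor SOCS3. Macrophages are also professional antigen-presenting cells: they load peptides onto class II molecules of the major histocompatibility complex, called DLA in the dog, and can down-regulate or raise them with their state of activation.

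A log2 ratio is co-culture over mono-culture, taken from the normalized log ratio of each array, turned so that positive values are higher in co-culture. Both arrays of a pair held the same RNAs with the dyes swapped, so a pair is 1 replicate and its own ratio has no test. A P114 ratio could be tested only against the ratios of the other 4 co-cultures, with limma, where the spread comes from those 4 and P114 is assumed to vary as they do. An exact permutation test of 1 value against 4 cannot give a p below 0.2. The ratios of the 2 P114 cancer cell arrays correlated at r = 0.836 across 26163 genes, and those of the 2 P114 macrophage arrays at r = 0.931 across 26111 genes. The other pairs lay between 0.798 and 0.941. Genes are not independent replicates, so these values describe agreement between dyes only.

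The 2 sorted populations of the P114 co-culture were close to each other in content. Levels, given as log2 of the processed signal after normalization across all channels, were compared for genes that the mono-cultures had at least 16-fold apart. The 764 genes with the higher level in macrophages had a median difference of 5.60 on the log2 scale between those mono-cultures, which is what chose them. Between the sorted populations the median difference of the same genes was 0.08, and 86.0% of them lay within 2-fold. The 764 genes that were higher in mono-cultured P114 had a median difference of -4.90 in mono-culture and of 0.06 between the sorted populations, with 87.7% within 2-fold.

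**Figure D1:**
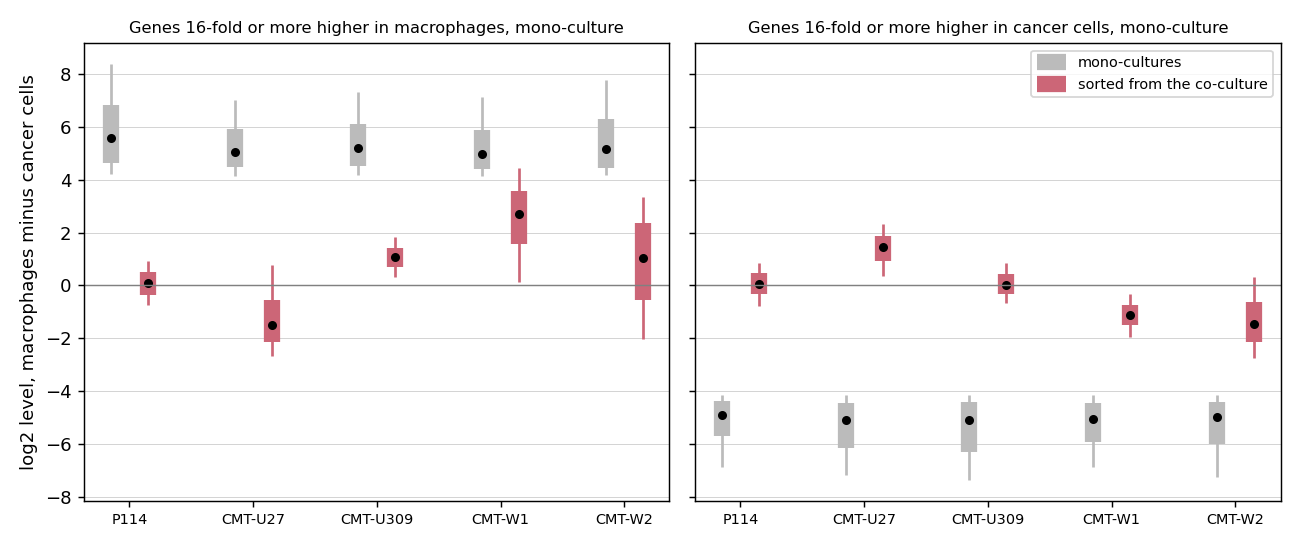
Log2 level in macrophages minus log2 level in cancer cells (vertical axis) for genes that differed at least 16-fold between the mono-cultures, with macrophages (left) or cancer cells (right) the higher, for each co-culture. Points are medians over genes, bars run from the 25th to the 75th percentile and lines from the 10th to the 90th, in grey for the mono-cultures and in red for the sorted cells. The red P114 medians sit at 0.08 and 0.06, and only those of CMT-U27 lie on the other side of zero from the mono-cultures by more than 1.

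The other co-cultures were further apart in at least one of these sets. For genes higher in mono-cultured macrophages, the sorted difference was 1.07 with CMT-U309, 2.72 with CMT-W1 and 1.05 with CMT-W2. For genes higher in mono-cultured cancer cells it was 0.00 with CMT-U309, -1.12 with CMT-W1 and -1.47 with CMT-W2. CMT-U27 went against its labels: the sorted difference was -1.49 for macrophage genes and 1.44 for cancer cell genes. Genes higher in mono-cultured macrophages thus stood higher in its sorted cancer cells than in its sorted macrophages, and the cause was not tested. Results against the other lines are therefore also given without CMT-U27 where that alters a call. These are 1 value for each co-culture, and differences between co-cultures were not tested.

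Across all 23683 genes above background in the P114 comparison, 93.2% lay within 2-fold between the sorted populations, against 52.9% between the mono-cultures. The corresponding shares of sorted genes were 77.1% for CMT-U27, 85.7% for CMT-U309, 52.1% for CMT-W1 and 62.4% for CMT-W2. On a linear scale, the macrophage genes stood at a median of 8.94% of their mono-cultured macrophage level in sorted P114 cells and at 10.1% in sorted macrophages. The cancer cell genes stood at 67.7% of their mono-cultured P114 level in sorted P114 cells and at 76.1% in sorted macrophages. In bulk RNA, fewer cells of a type and less RNA per cell cannot be told apart.

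Macrophage markers gave the same picture gene by gene. CD163, the haemoglobin-haptoglobin scavenger receptor of macrophages, had a level of 4.74 in mono-cultured P114, where it was not above background on either array. It stood at 11.77 in sorted P114 cells, 16.81 in mono-cultured macrophages and 12.08 in sorted macrophages. FCGR1A, which encodes the CD64 used to sort the monocytes, stood at 7.40, 12.64, 17.05 and 12.83 in the same order. Both sorted populations were thus near each other and well below the macrophage mono-culture for both genes. All 16 markers measured were above background in both sorted populations and in mono-cultured macrophages, against 9 of 16 in mono-cultured P114, where CD163, CD209, CD80 and FCER1G were at background on both arrays. The summed log2 level of the list was 14.22 in mono-cultured P114, 16.48 in sorted P114 cells, 20.09 in mono-cultured macrophages and 17.25 in sorted macrophages. The median marker stood at 4.94% of its mono-cultured macrophage level in sorted P114 cells and at 7.46% in sorted macrophages, and only CD40, which activated cells of several types carry, exceeded 50%: it stood at 131% and 78.2%.

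Of the 5 epithelial markers on the array, 3 were at least 3-fold higher in the sorted macrophages than in mono-cultured ones, namely TJP1, OCLN and MUC1, against 13.9% of all genes measured. CLDN2 and CLDN3, both claudins of tight junctions, stood at 40.7% and 71.4% of their mono-cultured macrophage level. TJP1, a tight junction scaffold, stood at 12.88 in mono-cultured P114, 13.12 in sorted P114 cells, 9.76 in mono-cultured macrophages and 12.98 in sorted macrophages. OCLN, a tight junction membrane protein, stood at 8.74, 8.60, 3.62 and 9.56, with mono-cultured macrophages at background on both arrays. The sorted macrophages reached the level of the cancer cells for both genes. Keratins looked for were not among the markers named on the array. The fractions are called sorted P114 cells and sorted macrophages after their labels, although these values do not separate them by content. The marker values belong beside every ratio below, and their part in the results was not tested.

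IL6 was among the genes with the highest P114 ratios. In cancer cells its log2 ratio was 6.10 on one array and 6.04 on the other, with a mean of 6.07. The other lines gave 4.13 (CMT-U309), 4.88 (CMT-W1) and 4.86 (CMT-W2), and CMT-U27 did not meet the filter on dim spots. P114 was the highest of the 4. Its difference from the mean of the others was 1.45 on the log2 scale (SE 0.689), which limma did not call. In macrophages the P114 ratio was 5.60 (arrays 5.86 and 5.34), and the other co-cultures gave 4.83, 5.87 and 4.38 in the same order. IL6 was at background in the mono-cultured macrophages, so the P114 ratio is a lower bound and its place among the co-cultures is not known. A difference of 0.57 (SE 0.809) was not called by limma (adjusted p = 1.00), and it took the opposite sign with another background correction, as it also did in cancer cells.

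As levels, IL6 stood at 5.65 in mono-cultured P114, above background on 1 of 2 arrays, and at 11.72 in sorted P114 cells. It was at background on both arrays in mono-cultured macrophages (4.78) and at 10.38 in the sorted ones, which was at least 25.8-fold higher. IL6 thus lay at least 3-fold above both mono-cultures in both sorted populations, as it also did in the CMT-U309, CMT-W1 and CMT-W2 co-cultures. A second IL6 probe had P114 ratios of 5.48 in cancer cells and 4.67 in macrophages.

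The 3 other genes of the IL6 list were nearer to zero. LIF, the leukaemia inhibitory factor, had ratios of 1.73 and 2.78 on the P114 cancer cell arrays, with a mean of 2.25 against 0.00 (CMT-U27), 0.29 (CMT-U309), 1.79 (CMT-W1) and 0.70 (CMT-W2). P114 was the highest, and the difference of 1.56 (SE 0.808) was not called by limma (adjusted p = 1.00). With normexp and loess the LIF difference in cancer cells was 0.49. In macrophages LIF had a ratio of 1.65. LIFR, its receptor chain, had ratios of -0.35 in cancer cells and -1.37 in macrophages. SOCS3, the feedback inhibitor, had ratios of -0.75 and -0.93. In the cancer cells 3 of the 4 genes had P114 above all other lines, against 12.8% of all genes tested, and IL6, one of them, fell to a difference of -0.11 with normexp and loess.

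Because the 2 sorted populations were so alike, the levels of both were set against both mono-cultures. A gene at least 3-fold above both mono-cultures in both sorted populations, with no overlap between single arrays, was counted. In the P114 co-culture 275 of 25036 measured genes were of this kind (1.10%), of which 30 have a symbol, out of 751 measured symbols. 30 genes lay at least 3-fold below both mono-cultures (0.120%), of which 1 has a symbol. The corresponding counts above were 163 for CMT-U27 (0.688%), 760 for CMT-U309 (3.46%), 74 for CMT-W1 (0.383%) and 68 for CMT-W2 (0.305%). There is no replicate behind these counts. In addition, 1 CMT-U309 cancer cell array had 9870 outlier-marked spots, and no other array had more than 1438.

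**Figure D2:**
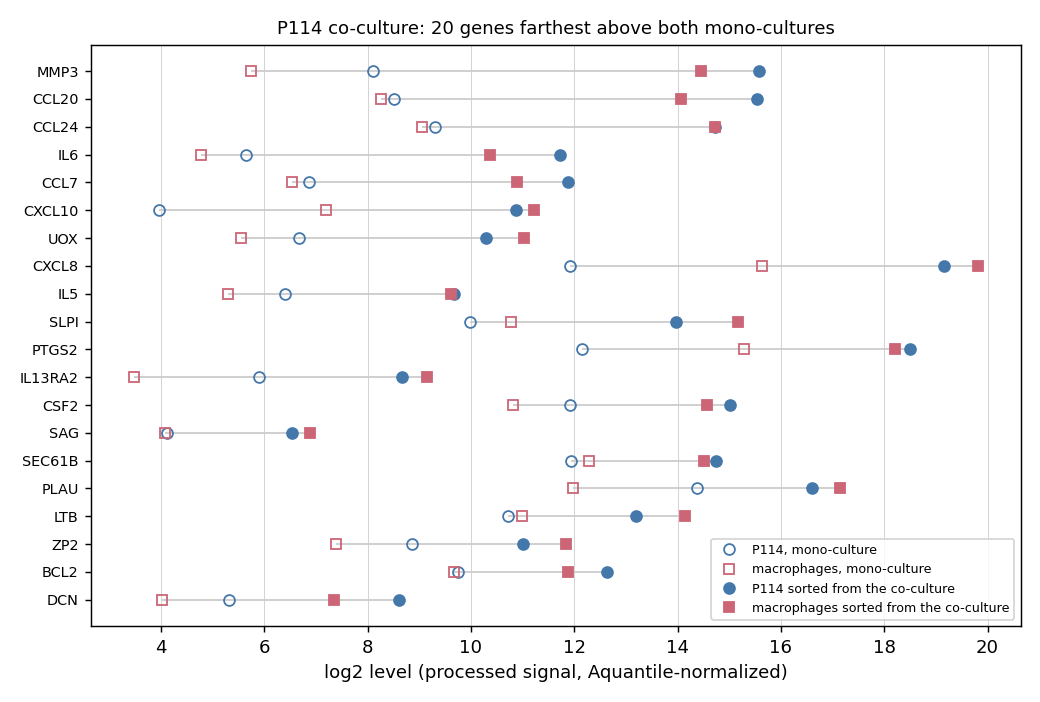
Log2 levels (horizontal axis, normalized processed signal) of the 20 named genes farthest above both mono-cultures in the P114 co-culture. Circles are P114 cells and squares macrophages, open for the mono-culture and filled for the cells sorted from the co-culture; each is the mean of both arrays of its pair. Both filled symbols lie to the right of both open ones for every gene, with a gap of 6.35 between the nearest filled and open symbols for MMP3 and of 2.03 for DCN.

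The farthest above was MMP3, stromelysin, which degrades extracellular matrix. Its level was 8.11 in mono-cultured P114 and 5.73 in mono-cultured macrophages, and 15.59 and 14.46 in the sorted cells. Its log2 ratio of 7.48 was the highest of the named genes in P114 cells (arrays 7.37 and 7.59), and its ratio of 8.73 the highest in the macrophages (arrays 8.99 and 8.46). CMT-W2 came close in both, at 6.91 in cancer cells and 8.01 in macrophages, and it was the only other co-culture with MMP3 above both mono-cultures.

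Several of the others encode chemokines or cytokines. CCL20, which attracts CCR6-bearing dendritic cells and lymphocytes, stood at 8.51 and 8.26 in the mono-cultures and at 15.54 and 14.08 in the sorted cancer cells and macrophages. CCL24, an eosinophil attractant, stood at 9.30 and 9.05 in the mono-cultures and at 14.72 in both sorted populations. CCL24 did not meet the criterion in any other co-culture, and only CMT-W2 cancer cells measured it at all, with a ratio of 0.24. CCL7, CXCL10 and CXCL8, which attract monocytes, activated T cells and neutrophils, were also of this kind, as were CSF2, the granulocyte-macrophage colony-stimulating factor, IL5, the eosinophil growth factor, and LTB, a lymphotoxin subunit. CSF2 met it with CMT-U309, CMT-W1 and CMT-W2 too, whereas IL5 and LTB did so with none.

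PTGS2, the inducible cyclooxygenase of prostaglandin synthesis, stood at 12.15 in mono-cultured P114 and 15.29 in mono-cultured macrophages, and at 18.49 and 18.22 in the sorted cells. BCL2 and BIRC3, both inhibitors of cell death, exceeded both mono-cultures by at least 2.13 and 1.93 on the log2 scale. PLAU, the urokinase plasminogen activator, did so by at least 2.21, and SULF1, an extracellular sulfatase, by at least 1.77. Of the 30 symbols, 15 met the criterion in no other co-culture, including CCL24, IL5, SLPI, PTGS2, LTB, BCL2, SULF1 and LIF. A gene hardly measured elsewhere, such as CCL24, is among these 15. The matching share over all genes of this kind, named or not, is not given here, so the 15 are not read as particular to P114. HMOX1, haem oxygenase, was the one symbol below both: 11.48 and 12.42 in the mono-cultures, 8.54 and 8.52 in the sorted cells.

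In P114 cancer cells, 1173 of 26163 measured genes were at least 3-fold higher in co-culture on both arrays (4.48%) and 717 at least 3-fold lower (2.74%). With normexp background correction and each array centred on its median, 906 of 917 such genes were higher. The share at 3-fold in either direction, 7.22%, lay within the 6.28% (CMT-W1) to 21.4% (CMT-U27) of the other lines, of which CMT-W2 had 6.92%. Beside IL6 and MMP3, the highest ratios belonged to CXCL8 at 7.24, CD163 at 7.03, CCL20 at 7.02, CXCL10 at 6.91, PTGS2 at 6.34, the inflammatory cytokine IL1A at 6.06, the immunoproteasome subunit PSMB8 at 5.88 and the lysosomal protease CTSS at 5.68. CD163, CXCL10, IL1A and PSMB8 were at background in mono-cultured P114, so their folds are bounds: at least 69.1-fold, 37.1-fold, 22.5-fold and 31.1-fold. Of the genes with the highest ratios, CCL20, CXCL10 and IL6 lay above all other lines tested, and CXCL8, PTGS2 and CTSS within their range. CD163, IL1A and PSMB8 had values within that range too, but as lower bounds, so their place among the lines is not known. For MMP3 the only other measured line was CMT-W2.

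The lowest named ratio was that of HSP70, a heat-shock chaperone, at -6.35 and -6.47 on the 2 arrays. Its level was 18.58 in mono-cultured P114 and 12.17 in sorted P114 cells. CMT-U309 had nearly the same values, 18.55 and 11.74, while the mono-cultures of the other lines stood at 14.55 (CMT-U27), 10.38 (CMT-W1) and 12.25 (CMT-W2). All 5 sorted lines lay between 11.40 and 13.07, so the lines differed mainly in their mono-cultures. HMOX1 had a ratio of -2.93, SERPINF1, an angiogenesis inhibitor, of -2.50, CLDN3, a tight junction claudin, of -2.38 and DSG3, a desmosomal cadherin, of -2.38.

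Set against the other 4 lines, 0 of 21523 genes passed in the cancer cells at an adjusted p under 0.05 with limma (0%), and 193 did at an unadjusted p under 0.05 (0.897%), 78 of them higher (0.362%) and 115 lower (0.534%). The methods' t-test on the same values also called 0 after adjustment and 391 before it. P114 lay above all other lines for 2757 genes (12.8%) and below all for 3066 (14.2%). In simulated data of this design limma called none of the 16-fold differences between P114 and the other lines, so the count of 0 says little about differences of that size. Without CMT-U309, 1032 genes passed at the unadjusted p and 0 after adjustment.

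**Figure D3:**
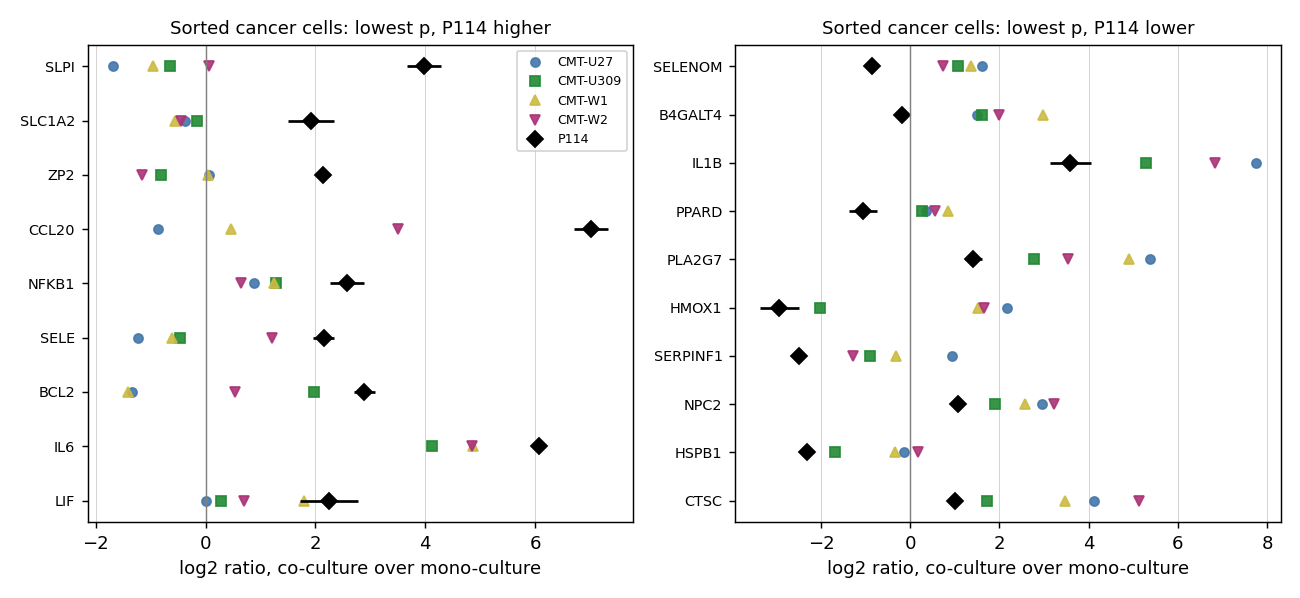
Log2 ratios, co-culture over mono-culture (horizontal axis), in sorted cancer cells for the named genes with the lowest p among those higher in P114 (left) and lower in P114 (right). Black diamonds are the P114 pair mean with a line joining its 2 arrays, and coloured symbols the pair means of the other lines. SLPI stands at 3.97 in P114 and no higher than 0.06 elsewhere; HMOX1 stands at -2.93 in P114 and -2.02 in CMT-U309, against 1.51 to 2.17 in the rest. The P114 value of IL1B is a lower bound.

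SLPI, a secreted inhibitor of leukocyte proteases made by epithelia, had the lowest p among named genes. Its P114 ratios were 3.66 and 4.28, against -1.69 (CMT-U27), -0.65 (CMT-U309), -0.95 (CMT-W1) and 0.06 (CMT-W2). P114 did not overlap the other lines, and the difference was 4.78 (SE 0.776) with a limma adjusted p of 1.00. Against CMT-U27 alone, which shared its slide, the difference was 5.66. Within the macrophages, the SLPI ratio with P114 was 4.40, but CMT-U27 gave 5.15 while CMT-U309, CMT-W1 and CMT-W2 lay between -0.29 and -0.15. A second SLPI probe gave P114 5.03 in cancer cells, against a mean of -0.96 over the other lines.

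CCL20 had the largest difference from the mean of the other lines among the named genes with the lowest p in cancer cells. P114 had ratios of 6.71 and 7.33, against -0.86 with CMT-U27, 0.46 with CMT-W1 and 3.50 with CMT-W2. CMT-U309 was left out because of outlier-marked spots. P114 lay above the lines with a value, with a difference of 5.99 (SE 1.64) from their mean, which limma did not call. With outlier-marked spots kept, which brings in CMT-U309, the difference was 5.23. NFKB1, the precursor of a subunit of the inflammatory transcription factor NF-kappa B, had a P114 ratio of 2.57 against 0.65 to 1.28, a difference of 1.56 (SE 0.603). BCL2 had 2.89 against -1.41 to 1.97, and ZP2, an egg coat glycoprotein, 2.13 against -1.16 to 0.06. SELE, the endothelial selectin that binds leukocytes, had 2.15 against -1.23 to 1.21. None of these was called, but all lay above every other line measured.

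SLC1A2, a glutamate transporter, stood at 1.92 against -0.56 to -0.16, although it was above background on only 1 of 2 mono-culture channels in P114. Its difference from the mean of the others was 2.30. It shrank to 0.44 with normexp and loess and to 0.51 with normexp and median centring.

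On the lower side, IL1B, the pyrogenic cytokine, had P114 ratios of 4.05 and 3.13, against 7.75 (CMT-U27), 5.28 (CMT-U309) and 6.82 (CMT-W2). It was at background in mono-cultured P114 and at least 3.30-fold higher in the sorted cells, so its P114 ratio is a lower bound and its place among the lines is not known. PLA2G7, the phospholipase that hydrolyses platelet-activating factor and is abundant in macrophages, had 1.41 against 2.77 to 5.38. CTSC, cathepsin C, had 0.99 against 1.71 to 5.13, and NPC2, a lysosomal cholesterol carrier, 1.07 against 1.90 to 3.22. HMOX1 had -2.93 against -2.02 with CMT-U309 and 1.51 to 2.17 with the rest. SELENOM, a selenoprotein of the endoplasmic reticulum, stood at -0.86 against 0.74 to 1.60, PPARD, a lipid-sensing nuclear receptor, at -1.06 against 0.27 to 0.85, and HSPB1, a small heat-shock protein, at -2.32 against -1.69 to 0.17. B4GALT4, a galactosyltransferase, stood at -0.18, a difference of -2.19 from the mean of the others, which shrank to -0.47 with normexp and loess and to -0.44 with normexp and median centring. A second B4GALT4 probe had -0.64 in P114 against a mean of -0.77. By the brightest probe, each of these genes other than IL1B lay below every other line measured.

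In the macrophages of the P114 co-culture, 3633 of 26111 measured genes were at least 3-fold higher than in mono-culture on both arrays (13.9%) and 2530 at least 3-fold lower (9.69%). With normexp and median centring, 849 of 1831 such genes were higher. Together they made up 23.6%, within the range of 18.5% to 24.3% of the other co-cultures. After MMP3, the highest ratios were those of RHPN2 at 7.22, CAV2, a caveolar coat protein (arrays 7.06 and 6.94), ABCC5, a nucleotide and drug efflux pump, at 6.96, F2RL1, the protease-activated receptor for trypsin, at 6.09, and F3, tissue factor, at 5.86. By the brightest probe, RHPN2, ABCC5 and F2RL1 were at background in mono-cultured macrophages and at least 71.8-fold, 96.5-fold and 23.9-fold higher in the sorted ones. Other probes gave log2 ratios of 4.51 and 3.51 for RHPN2, 8.28 and 4.35 for CAV2, and 7.61 and 4.16 for ABCC5. All 5 were well measured in mono-cultured P114 cells, with levels of 12.15, 14.25, 10.60, 9.82 and 16.77 in the order named. In sorted macrophages they stood at 11.85, 14.09, 12.52, 10.26 and 18.81.

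OCLN, which was at background in mono-cultured macrophages, had a ratio of 5.94, and DSG3 had 5.93. SERPINH1, a collagen chaperone, had 5.95 by its brightest probe, but its other probes gave -0.00 and -0.99.

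Several receptors and other genes known from macrophages were among the lowest ratios. The scavenger receptor CD36 had -5.45, the complement receptor C5AR1 -5.41, the lectin receptor CD209 -5.14, the monocyte chemokine CCL13 -4.80, IL1B -4.79, CD163 -4.73 and TLR2 -4.67. EDNRB, an endothelin receptor, was at background in the sorted cells and at least 19.9-fold lower there. MYH7 had -5.72 by its brightest probe and between -0.18 and 0.58 by 3 others. C5AR1 and CD163 were lower still with CMT-W1 and CMT-W2, at -8.27 and -7.51 for C5AR1 and at -8.61 and -8.03 for CD163.

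Against the other 4 co-cultures, limma called 0 of 24295 genes at an adjusted p under 0.05 (0%), and 1039 passed at an unadjusted p under 0.05 (4.28%), 452 higher (1.86%) and 587 lower (2.42%). The methods' t-test called 0 after adjustment and 792 before it. P114 lay above all others for 4615 genes (19%) and below all for 4030 (16.6%). In simulated data of this design, limma called 53% of the 16-fold differences and 2% of the 4-fold ones. At the unadjusted p, 1805 genes passed without CMT-U27 and 594 without CMT-W2.

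**Figure D4:**
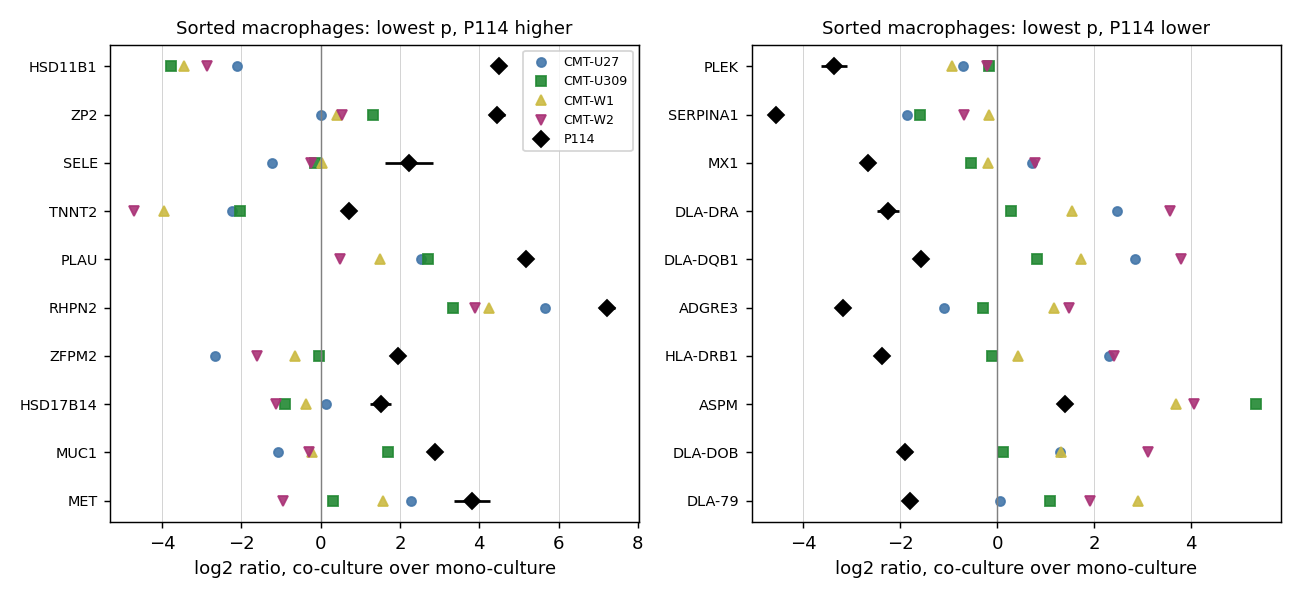
Log2 ratios, co-culture over mono-culture (horizontal axis), in sorted macrophages for the 10 named genes with the lowest p among those higher with P114 (left) and lower with P114 (right). Symbols are as for the cancer cells. HSD11B1 stands at 4.49 with P114 and at -2.10 or lower elsewhere, and 4 of the 10 genes on the right are DLA genes.

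HSD11B1, the enzyme that regenerates active cortisol from cortisone, had the lowest p. Its ratios were 4.37 and 4.62 with P114, against -2.10 (CMT-U27), -3.76 (CMT-U309), -3.45 (CMT-W1) and -2.86 (CMT-W2). P114 alone was positive, and the difference of 7.54 (SE 0.777) had a limma adjusted p of 0.288. The difference was 7.85 without CMT-U27 (limma adjusted p = 0.0124), 3.60 with normexp and loess (limma adjusted p = 0.490) and 3.55 with normexp and median centring (limma adjusted p = 1.00). As levels, HSD11B1 stood at 12.33 in mono-cultured P114, 11.18 in sorted P114 cells, 7.77 in mono-cultured macrophages and 12.26 in sorted macrophages. Mono-cultured CMT-U309 stood at 10.38 and the remaining lines between 3.50 and 4.01. Against CMT-W1 alone, which shared the slide of the P114 macrophages, the difference was 7.95.

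ZP2 and SELE were among the genes with the lowest p higher with P114 in both populations. ZP2 had a macrophage ratio of 4.45 (arrays 4.65 and 4.26) against -0.00 to 1.31, a difference of 3.89 (SE 0.702, limma adjusted p = 0.951). SELE had 2.22 (arrays 2.83 and 1.61) against -1.23 to 0.02, a difference of 2.62 (SE 0.707, limma adjusted p = 0.979). P114 did not overlap the others for either gene. A second SELE probe, measured with only 2 of the other lines, gave P114 9.03 in macrophages and 9.53 in cancer cells, against means of 6.34 and 6.57.

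PLAU stood at 5.17 with P114 against 0.49 to 2.71, and MET, the hepatocyte growth factor receptor, at 3.81 against -0.94 to 2.28. MUC1, an epithelial mucin, stood at 2.88 against -1.09 to 1.70, HSD17B14, a steroid dehydrogenase, at 1.51 against -1.12 to 0.12, and TNNT2, a troponin, at 0.72 against -4.70 to -2.04. With normexp and loess the difference from the mean of the others went from 3.36 to 3.43 for PLAU and from 3.01 to 1.54 for MET. It went from 2.85 to 1.19 for MUC1, from 2.08 to 0.93 for HSD17B14 and from 3.95 to 1.40 for TNNT2. The levels of PLAU, MET and MUC1 in mono-cultured P114 were 14.39, 11.15 and 10.65, each above the 11.97, 7.09 and 7.33 of mono-cultured macrophages. In mono-culture, MUC1 was already higher in P114 than in any other line, although CMT-U309 came near it at 9.59. The rest stood between 5.63 (CMT-U27) and 7.24 (CMT-W1). The P114 difference from the mean of the other lines was 3.22 (SE 1.37). In this comparison of mono-culture levels, limma called 0 of 21523 genes and 97 passed at an unadjusted p under 0.05 (0.451%). At that unadjusted p, 295 passed without CMT-U27, 726 without CMT-U309, 157 without CMT-W1 and 50 without CMT-W2. ZFPM2, a transcriptional cofactor, stood at 1.94 against -2.67 to -0.05 by its brightest probe, and its other probes were measured with too few other lines for a comparison. Its difference of 3.18 shrank to 0.63 with normexp and loess.

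Among the genes with the lowest p lower with P114, PLEK, pleckstrin, a substrate of protein kinase C in platelets and leukocytes, had a mean ratio of -3.36 with P114, negative on both arrays, against -0.94 to -0.16. The difference was -2.87 (SE 0.646, limma adjusted p = 0.951). SERPINA1, alpha-1 antitrypsin, had -4.55 against -1.86 to -0.16, and ADGRE3, an adhesion receptor of myeloid cells, -3.19 against -1.10 to 1.47. MX1, an antiviral GTPase induced by interferon, had -2.67 against -0.53 to 0.78. ASPM, a spindle protein of dividing cells, was positive with P114, at 1.41, but below the 3.69 to 5.34 of the 3 other co-cultures in which it was measured. P114 lay below every other co-culture measured for each of these genes.

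Antigen presentation genes were lower in the P114 macrophages than in the other co-cultures for most of the list. Of 10 genes measured, 0 had a positive ratio with P114, 8 lay below all other co-cultures and 5 passed at an unadjusted p under 0.05, while limma called none after adjustment. Over all genes tested, 16.6% lay below all others and 4.28% passed at that unadjusted p. The median difference of the list was -2.78, against -0.00 over all genes tested. The median ratio was -1.69 with P114, against 1.20 (CMT-U27), -0.07 (CMT-U309), 0.58 (CMT-W1) and 1.80 (CMT-W2).

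DLA-DRA, the alpha chain of the class II molecule DR, had ratios of -2.48 and -2.03 with P114, against 2.47 (CMT-U27), 0.28 (CMT-U309), 1.55 (CMT-W1) and 3.57 (CMT-W2). P114 alone was negative, and the difference was -4.22 (SE 1.13, limma adjusted p = 0.979) and, against CMT-W1 alone on the same slide, -3.80. DLA-DQB1 and DLA-DQA1, the chains of DQ, stood at -1.57 against 0.82 to 3.80 and at -1.99 against -0.26 to 2.55. HLA-DRB1, which the array names by its human symbol and which was outside the list, stood at -2.37 against -0.11 to 2.41. These chains have near-identical paralogs, so a probe may read more than one of them. DLA-DOB and DLA-DMA, which edit peptide loading, stood at -1.90 against 0.11 or more and at -1.18 against -0.57 to 1.68.

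**Figure D5:**
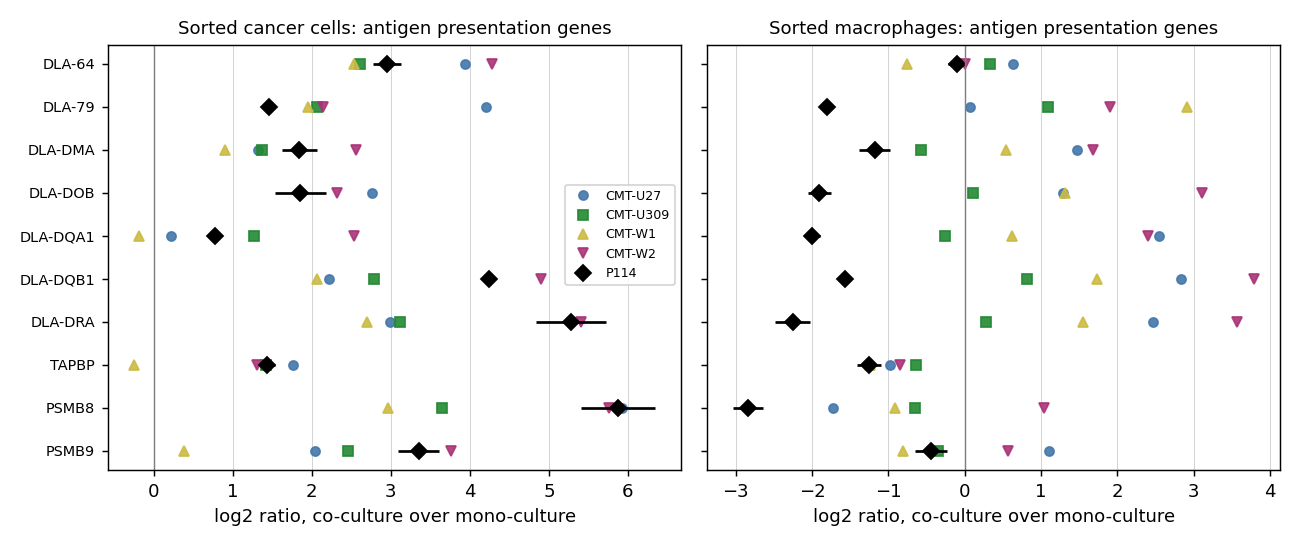
Log2 ratios, co-culture over mono-culture (horizontal axis), of the 10 antigen presentation genes in sorted cancer cells (left) and sorted macrophages (right). Black diamonds are the P114 pair mean with a line joining its 2 arrays, and coloured symbols the other co-cultures. In cancer cells all P114 values are positive and lie among the others except for DLA-79 and DLA-DOB, where P114 is the lowest. DLA-DOB was measured in only 2 other lines there. In macrophages 8 of the 10 P114 values are the lowest.

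The class I genes split. DLA-79, a non-classical class I gene, stood at -1.80 against 0.07 to 2.91, whereas DLA-64, another class I gene, stood at -0.11 against -0.75 to 0.63. Of the immunoproteasome subunits, PSMB8 stood at -2.83 against -1.73 to 1.04 and PSMB9 at -0.44 against -0.81 to 1.11. TAPBP, the peptide-loading chaperone tapasin, stood at -1.25 against -1.24 to -0.64, a lowest value by 0.01 only. DLA-64 and PSMB9 were thus the members for which P114 was within the range of the other co-cultures.

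In the cancer cells, all 10 genes of the list had positive P114 ratios and 6 were at least 3-fold higher on both arrays, with a median of 2.41. DLA-DRA stood at 5.28 (arrays 4.83 and 5.72), DLA-DQB1 at 4.24 and DLA-64 at 2.95. Of 9 tested against the other lines, 0 lay above all of them and 1 below, against 12.8% and 14.2% of all genes tested. As levels, the summed list stood at 15.26 in mono-cultured P114, 18.24 in sorted P114 cells, 19.11 in mono-cultured macrophages and 18.87 in sorted macrophages. For DLA-DQB1 the sorted populations were equal, at 12.78 each. The median macrophage marker stood at 7.46% of its mono-culture level in macrophages sorted from P114, at 21.7% with CMT-U27, 38.2% with CMT-U309, 5.50% with CMT-W1 and 4.34% with CMT-W2. MS4A1, the CD20 of B cells, which also carry class II molecules, stood in sorted macrophages at 118% of its mono-culture level with P114, at 83.9% with CMT-U27, 328% with CMT-U309, 3361% with CMT-W1 and 5672% with CMT-W2. The other lymphocyte markers did not all follow MS4A1: with CMT-W1, CD4 stood at 35.7% and IL2RA at 16.6%. The median of the 11 lymphocyte markers stood at 60.8% with P114, 60.1% with CMT-U27, 105% with CMT-U309, 75.4% with CMT-W1 and 134% with CMT-W2. Their summed log2 level, which the brightest genes dominate, was 10.71 in macrophages sorted from P114 and between 11.21 (CMT-U27) and 12.92 (CMT-W2) in the others. The part of these cells in the differences was not tested.

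Among the remaining lists, the chemokine ligands were high in P114 cancer cells without setting P114 apart. 14 of 20 were measured, 11 were positive and 10 at least 3-fold higher on both arrays, with a median of 4.36 against -0.04 over all genes measured, of which 4.48% were 3-fold higher. CCL2, CCL3, CCL4, CCL5 and CCL8 had ratios between 3.77 and 4.97, all within the range of the other lines. The median difference from the other lines was -0.18 over 11 tested, and 3 lay above all of them, against 12.8% of all genes tested: CCL20, CCL7 at 5.01 and CXCL10 at 6.91. In the macrophages CXCL8 had 4.18 (arrays 3.84 and 4.53) against -4.78 to 2.86, and PTGS2 had 2.93 against -5.35 to 1.28. P114 was the highest for both. The differences from the mean of the other co-cultures were 4.53 (SE 2.33) and 4.44 (SE 2.02), and limma called neither.

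The 5 members of the interleukin-1 family did not share a direction in both populations. In macrophages none was positive with P114, and IL1B, at -4.79, lay below the -3.91 to 0.55 of the others. IL1RN, the receptor antagonist, stood at -0.02 in P114 cancer cells against 0.25 to 4.12. Interferon-stimulated genes were positive in P114 cells in 6 of 6, with a median of 1.65, but the median difference was -0.73. In macrophages 3 of the 6 lay above all other co-cultures, against 19% of all genes tested, such as OAS2, an antiviral oligoadenylate synthetase, at 0.84 against -3.11 to -0.47, while MX1 lay below them.

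The adhesion molecules were the list with the largest positive median difference in macrophages: 1.34 over 6 tested, of which 4 lay above all others, against 19% over all genes tested. Besides SELE these were CD44, the hyaluronan receptor, at 1.60 against -0.88 to 0.92, ICAM1, a ligand of leukocyte integrins, at 1.84 against -0.40 to 1.75, and PDPN, podoplanin, at -0.78 against -5.72 to -1.07. Hypoxia-induced genes gave a median of -0.64 in P114 cancer cells, against -0.90 to 1.66 in the other lines. ADM, the vasodilator adrenomedullin, stood at -1.49 there, below the -0.87 to 2.61 of the others. Chemokine receptors, Toll-like receptors and the macrophage markers were mostly lower in the P114 macrophages (5 of 7, 4 of 8 and 13 of 16 at least 3-fold lower on both arrays), against 9.69% of all genes measured, with 2, 2 and 5 below all other co-cultures, against 16.6% of all genes tested. No member of any list was called by limma in either population.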

How the data were processed

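RNA of sorted co-cultured cells and of mono-cultured cells was hybridized together on 20 two-colour Agilent canine arrays in 10 dye-swap pairs. The authors scanned them and made the deposited files with Agilent Feature Extraction 10.7.3.1: the log10 ratio of red over green after background subtraction and linear and lowess dye normalization, and the processed, median and background intensity of each channel. The deposited value table holds the same log10 ratios, turned to co-culture over mono-culture, as comparison with the scanner files showed. Number of arrays, not read depth, limits the precision.

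Log ratios were converted to log2, turned to co-culture over mono-culture and averaged over each pair. Control spots and outlier-marked spots were left out, spots of a probe were averaged, and the brightest probe stood for a gene. A gene was measured if well above background in either channel on both arrays of a pair, and was tested if so in P114 and at least 3 of the other 4 pairs. limma 3.58.1 in R 4.3.3 (lmFit, eBayes) compared P114 with the other 4 pairs, with Benjamini-Hochberg adjustment and a threshold of 0.05. Levels were Aquantile-normalized over both channels. Folds against a channel at background are bounds: the bright group's mean over the higher of the dimmest well-measured signal and the probe's own. Fits were tested on simulated data with 200 changed genes.

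Of 43603 probes, 1648 carry a symbol in the tables used here, for 1045 symbols; the others went into every count but are not named. Named genes were, in each cell type, the 10 lowest p higher and the 10 lower in P114, the 10 highest and 10 lowest P114 ratios, the IL6 list and the largest differences of each gene list; names outside these rules (the genes above or below both mono-cultures) were chosen after their values were seen. Some genes that these rules pick are not reported here. The members and gene lists were chosen with earlier results of these data known. Alternatives were normexp (offset 50) with loess or median centring, which used median signals because the files hold no mean signals, the value table, no filter on dim spots, all 5 pairs measured, outlier-marked spots kept, each probe alone, single dye orientations, the replicate number, the slide, both cell types in 1 fit, the methods' t-test, quantile normalization, a 2-fold limit and leaving out each other line. The labels call the second array of a pair a biological replicate and the study's methods call it a dye swap; it was treated as a dye swap. Replicate numbers mark the 2 arrays of one pair. Whether the same macrophage mono-culture RNA served all pairs is not given in the sources used here. No probe sequence or coordinate was used.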

Additional observations from a re-analysis of the deposited data

Results flagged for a closer look

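42 genes named in the comparisons were checked for 1 co-culture whose ratio lay far from the other 4 relative to the whole range, and 3 passed, each with P114 as the far value. Chance gives this in about 1 in 20 such groups. In cancer cells SLC1A2, the glutamate transporter, had a log2 ratio of 1.92 in P114, with the nearest other line at -0.16. Its difference from the mean of the others shrank from 2.30 to 0.44 with normexp and loess. In macrophages HSD11B1 had 4.49 with P114, with the nearest other co-culture at -2.10, and PLEK had -3.36, with the nearest at -0.94. The genes checked had mostly been chosen for their distance from the other lines, so these findings are not independent of that choice.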

How the results depend on the processing

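Of the differences of single named genes under all alternatives, 732 kept their direction and side of the threshold and 3 reversed. No named gene passed in the main fit, so keeping the side of the threshold says little, and sizes did change. Over the alternatives SLC1A2 ranged from 0.44 to 2.38 and B4GALT4 from -2.44 to -0.44 in cancer cells. In macrophages ZFPM2 ranged from 0.58 to 3.58. The P114 difference for IL6 reversed with normexp and loess, to -0.11 in cancer cells and -0.90 in macrophages, and with normexp and median centring to -1.48 in macrophages; the cause was not tested. With the slide as a fixed block, where P114 stands against CMT-U27 alone, whose sorted populations went against their labels, and the spread comes from the slide of CMT-U309 and CMT-W2, limma called 116 cancer cell genes, 61 of them higher, including SLPI at 5.66 (adjusted p = 0.00781) and HMOX1 at -5.10 (adjusted p = 0.0288). In macrophages, leaving out 1 other co-culture gave 0 to 1 calls, the 1 being HSD11B1 at 7.85 without CMT-U27 (adjusted p = 0.0124). With the replicate number as a replicate block, and the pair as a random block, limma called 1 gene in macrophages and 0 in cancer cells; the numbers mark the 2 arrays of a pair and do not pair separate samples.

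Genes at least 3-fold on both P114 arrays numbered 442 with normexp and loess, 917 with normexp and median centring (906 higher) and 4827 at 2-fold in cancer cells, against 1890 (1173 higher). In macrophages they numbered 1759, 1831 (849 higher) and 10156, against 6163 (3633 higher). Genes above both mono-cultures numbered 66 with normexp and loess and 755 at 2-fold, against 275, and genes below both 4 and 409, against 30; these alternatives were chosen after seeing the data. The sorted difference of the P114 cancer cell genes was -0.13 with quantile normalization. Signal over background limits what can be said of genes at background in a mono-culture, and 1 pair for each co-culture limits every P114 value.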

Other observations

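Of 11 proteases and their inhibitors, 7 were at least 3-fold higher in sorted P114 cells than in mono-culture, against 4.48% of all genes measured. In macrophages 3 were at least 3-fold higher and 6 lower, against 13.9% and 9.69% of all genes measured. CTSK, cathepsin K, had log2 ratios of 4.95 in cancer cells and -2.90 in macrophages, CTSD, cathepsin D, 2.07 and -2.41, and ANPEP, the aminopeptidase CD13, 4.61 and -3.01; ANPEP was at background in mono-cultured P114, and its level was at least 7.61-fold higher in the sorted cells. None of these 3 lay outside the range of the other co-cultures in macrophages. TIMP2, a metalloproteinase inhibitor, stood at -3.01 in macrophages, below the -2.27 to -0.81 of the others, and TIMP1 at 1.21, above their -2.39 to 0.98.

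MYC, the growth-promoting transcription factor, had a ratio of 4.88 in macrophages with P114, within the 3.85 to 5.38 of the other co-cultures, and of -0.13 in P114 cells, above their -2.10 to -0.35. CCND1, cyclin D1, stood at 1.70 in macrophages, above their -0.40 to 1.41. All 4 ribosomal protein genes were at least 3-fold higher in the P114 macrophages than in mono-culture, against 13.9% of all genes measured. Their median ratio of 2.86 lay within the range of the other co-cultures. limma called none of these genes.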
